A study of Mus musculus with 6 samples.

Results

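Oxidative phosphorylation (OXPHOS) genes encode the subunits of the electron transport chain and of ATP synthase. They were compared between MASH livers labelled WT and Themis-KO. Members were the rows of the gene count table whose symbol carries the name of a subunit of complex I (mt-Nd and Nduf), complex II (Sdh), complex III (mt-Cytb and Uqcr), complex IV (mt-Co and Cox5 to Cox8) or complex V (mt-Atp and Atp5). Of 25403 genes listed, 103 matched. Names ending in -ps, 6 in all, were left out, and 4 had fewer than 10 counts over all livers (Cox6a2, Cox8b, Ndufs6b and Atp5l-ps1). The remaining 93 members comprised 80 nuclear genes and the 13 protein genes of mitochondrial DNA (mtDNA). The nuclear genes were 36 of complex I, 4 of complex II, 8 of complex III, 15 of complex IV and 17 of complex V, and the mtDNA genes were 7, 1, 3 and 2 of complexes I, III, IV and V. Cox7c-ps1 is described as a pseudogene and Ndufb4c is annotated as a processed pseudogene, and both match the name pattern. Ndufa4 and Ndufa4l2 were counted with complex IV, of which the NDUFA4 protein is a subunit despite its name.

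Poly(A) RNA of the liver was sequenced from 3 wild-type C57BL6/J mice and 3 whole-body Themis knockout mice. Both groups received a diet that induces MASH, for 3 months and from an age of 10 to 12 weeks. Fat supplied 40% of its energy and fructose 20%, and it contained 2% cholesterol. No chow-fed liver is part of the comparison. Themis encodes a signalling protein best known from T lymphocytes, and a knockout of the whole body does not separate hepatocytes from other cells. The labels give neither sex nor kinship for these livers. The study's text calls the mice of its MASH diet comparison male and chow-fed mice of both genotypes littermates, and it does not tie either to single libraries.

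Library totals ranged from 20679642 to 25649767 counts. Levels are given as TMM-normalized CPM, the counts of a gene relative to the scaled library total. Themis itself had a CPM of 8.07, 25.6 and 12.0 in the livers labelled WT and of 8.63, 7.74 and 9.97 in those labelled Themis-KO (log2 fold change −0.79, SE 0.38, adjusted p = 0.199 in edgeR's quasi-likelihood test). Its counts did not separate the labels, so each direction given here rests on the labels alone. Which part of the gene the allele removes is not given in the sources used here, and counts from a part that remains would not check the labels. Livers Themis-KO 1 and 2 were the pair of libraries closest to each other, with a chi-square per degree of freedom of 9.97, and the other 14 pairs lay between 28.0 and 91.3. Themis-KO 3 was nearest to WT 3, at 36.6. It stood at 41.9 and 43.0 from Themis-KO 1 and 2, and at 77.3 and 42.2 from WT 1 and 2.

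Complexes I, III and IV pass electrons from NADH to oxygen and pump protons across the inner mitochondrial membrane. Complex II feeds in electrons from succinate without pumping, and complex V, the ATP synthase, uses the proton gradient to make ATP. Complex II is encoded by nuclear genes alone, whereas the other 4 combine nuclear subunits, translated in the cytosol and imported, with subunits made inside the organelle from mtDNA. Hepatocytes are rich in mitochondria, and the respiratory chain reoxidizes the NADH that fatty acid oxidation yields.

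Nuclear pseudogenes that copy mtDNA limit the counts of several mtDNA genes. In GRCm38, chromosome 1 carries a run of 7 such copies at chr1:24611535-24616197 on the reverse strand, all annotated as unprocessed pseudogenes. Gm28661 matched mt-Co2 over 681 bases, Gm10925 matched mt-Atp6 over 678, Gm28437 matched mt-Co3 over 783, Gm10222 matched mt-Nd4l over 294 and Gm28439 matched mt-Nd4 over 876, each with 100% identity. A read that fits both places was divided by the counting software between them. The first 60 bases of mt-Nd3 (GRCm38, chrM:9459-9518, forward strand) and of its copy Gm28438 (chr1:24613060-24613119, reverse strand) are shown because these sequences differ by 1 base and because livers differed in which of them the reads of this gene were listed on. The capital marks the base that differs.
mt-Nd3: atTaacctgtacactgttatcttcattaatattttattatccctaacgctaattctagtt
Gm28438: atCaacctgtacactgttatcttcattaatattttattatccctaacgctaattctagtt
Counted from 1 at the gene's 5′ end and with the mtDNA base first, the difference is T3C, and it was the only one in 345 aligned bases.

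Of the 93 members, 91 had enough counts to be tested. Cox6b2, the testis form of a complex IV subunit, had 0 counts in every liver labelled WT and 2, 3 and 5 in those labelled Themis-KO, and Cox7c-ps1 had 20 counts in all. None of the 91 passed an adjusted p of 0.05 in edgeR's quasi-likelihood test, 0 lower and 0 higher, where 4.14% of 14496 genes tested were lower in the livers labelled Themis-KO and 4.97% were higher. At an unadjusted p under 0.05 there were 22 members, each with the lower level in Themis-KO, where 13.9% of all genes were lower and 16.8% higher at this p. DESeq2 called 5 members lower and 0 higher, where it called 7.48% of all genes lower. The 5 were mt-Nd4, mt-Nd5, mt-Cytb, mt-Co2 and Sdhb. The log2 fold change (Themis-KO minus WT) was below 0 for 86 of 91 members, against 49% of all genes tested. Its median was −0.17, or −11.03%, and that of all genes was 0.01. Every Themis-KO liver lay below every WT liver for 29 members (16.9% of all genes did so), and no tested member had every Themis-KO liver above every WT liver (17.7% of all genes did). The differences were thus small and mostly of 1 sign. After adjustment over all genes, no single member passed in edgeR's test, whereas DESeq2 called 5 lower.

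This sign depends on how libraries are scaled against each other. Scaled by total counts, the median of all genes moved from 0.01 to 0.15 and 57 of 91 members were below 0. Relative to the median of all genes, the nuclear members stood at −0.17 and the mtDNA members without mt-Nd3 at −0.31. Below that median lay 74 of 78 nuclear and 12 of 12 mtDNA members. These values were the same with TMM and with total counts. A change of scaling moves all genes by nearly the same amount, so this sameness follows from the calculation and is no separate check. As shares of all counts, nuclear members took 1.04%, 1.11% and 1.04% in the livers labelled WT and 0.993%, 1.00% and 1.10% in those labelled Themis-KO, and these ranges overlapped.

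**Figure D1:**
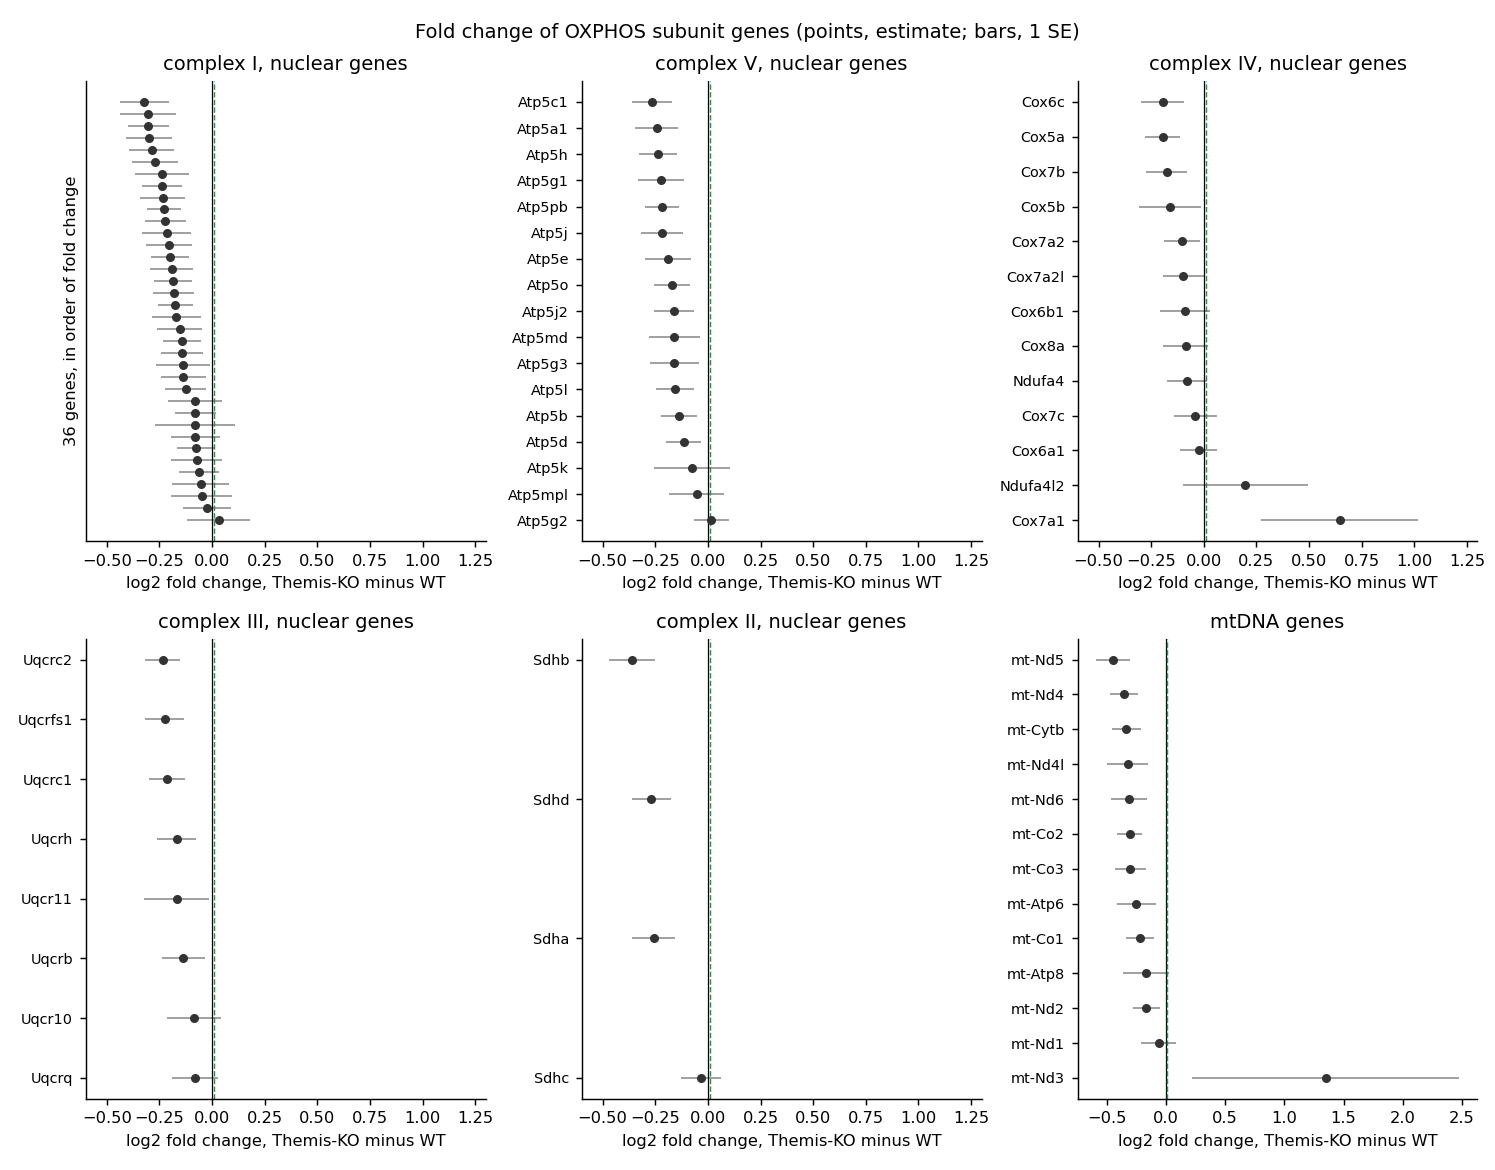
Log2 fold change, Themis-KO minus WT, of the 91 OXPHOS genes tested, in panels by complex and genome (point, edgeR estimate; bar, 1 SE; solid line, 0; dashed line, median of all genes tested, 0.01). The mtDNA panel has a wider axis, and the complex I panel names no genes. Of the points, 86 lie left of 0, and mt-Nd3 with 1.35 and Cox7a1 with 0.65 lie farthest right, with long error bars.

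The 6 livers did not divide cleanly by genotype label. In the livers labelled Themis-KO 1 and 2, 72 of 91 members lay below every WT liver in both, against 29.5% of all genes tested. Themis-KO 3 lay below every WT liver for 30 members, a share close to the 30.7% of all genes. It was above both other Themis-KO livers for 89 members, against 41.2% of all genes, and above every WT liver for 15, against 31.3%. WT 2 was the highest of all 6 livers for 68 members, against 18.5% of all genes, and WT 3 was the lowest WT liver for 79, against 33.2%. The median deviation of the nuclear members from their mean over the 6 livers, in log2(CPM + 0.5), was 0.09, 0.18 and −0.01 in WT 1, 2 and 3 and −0.17, −0.15 and 0.06 in Themis-KO 1, 2 and 3. For the 12 mtDNA genes without mt-Nd3 it was 0.13, 0.32 and 0.03 against −0.20, −0.26 and 0.01. Themis-KO 3 thus lay above WT 3 in the nuclear median and below it, by less than the spread within either group, in the mtDNA median. Without Themis-KO 3, 32 members passed an adjusted p of 0.05 as lower, where 13.8% of all genes did, whereas without any other single liver 0 did. Those other fits called few genes of any kind lower, between 0.0814% and 2.49% of all genes.

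**Figure D2:**
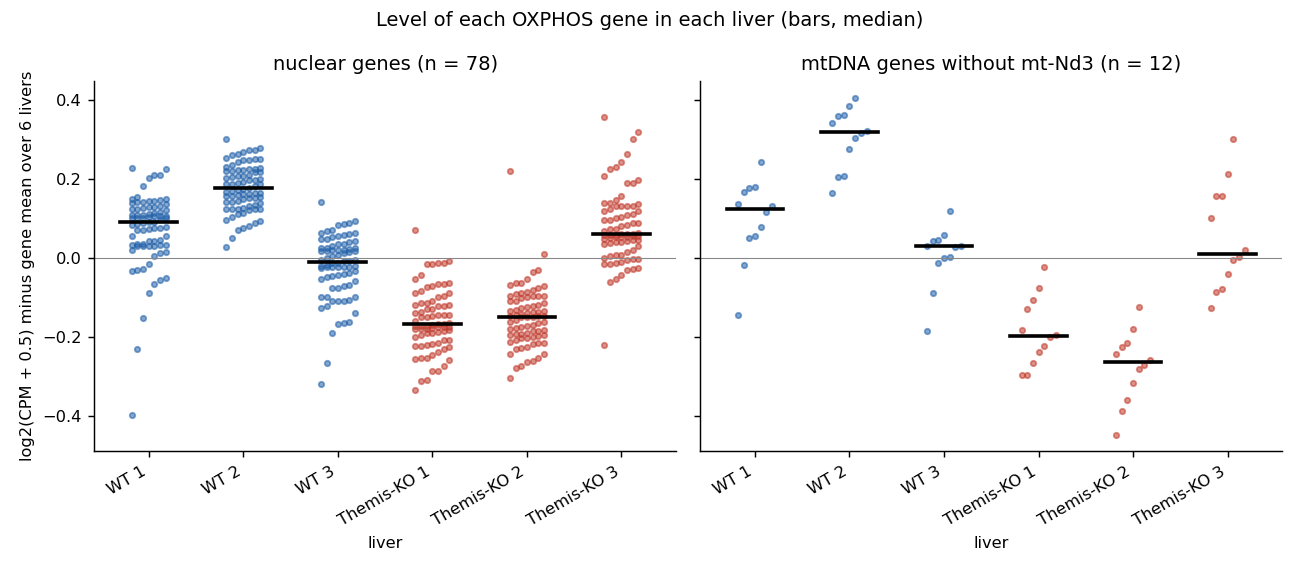
Each point is 1 gene in 1 liver, as log2(CPM + 0.5) minus the mean of that gene over the 6 livers (left, 78 nuclear genes; right, 12 mtDNA genes without mt-Nd3; blue, livers labelled WT; red, livers labelled Themis-KO; bar, median). Themis-KO 1 and 2 have the lowest medians, at −0.17 and −0.15 for nuclear genes, and Themis-KO 3, at 0.06, lies between WT 1 and WT 3.

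The summed markers of hepatocytes, hepatic stellate cells (HSC), cholangiocytes and endothelial cells also differed between the genotype labels without overlap, and those of macrophages, T cells and B cells overlapped. The 6 hepatocyte markers together took 58364 to 60929 CPM in livers labelled WT and 44782 to 49950 CPM in those labelled Themis-KO, and 2 of them, Serpina1a and Cyp2e1, passed the test as lower. All 5 of the genes that passed among the 6 HSC markers were higher, with a sum of 324 to 377 CPM against 509 to 577. Cholangiocyte markers summed to 153 to 192 CPM against 386 to 613 with 1 of 6 called, Spp1, and macrophage markers to 201 to 338 CPM against 324 to 436 with 1 of 6 called, Cd68. Of the other lists, 1 of 6 endothelial markers was higher (Lyve1, list sums of 184 to 202 CPM against 206 to 227). The endothelial log2 fold changes were below 0 for 2 markers and above 0 for 4, with a median of 0.17. Of 4 tested T cell markers, 1 was lower, Cd4 (log2 fold change −1.46, adjusted p = 0.039). In that list 2 were below 0 and 2 above, up to 1.38, and the list sums were 3.26 to 4.58 CPM against 2.49 to 5.31. For B cells, 0 of 4 markers were called by edgeR or DESeq2, with 0 at an unadjusted p under 0.05 (list sums of 2.34 to 5.57 CPM against 1.59 to 4.91). Among all genes tested, edgeR called 4.14% lower and 4.97% higher. None of the striated muscle markers listed had enough counts to be tested. Of the brown fat markers, Ucp1 and Cox8b had too few counts and 1 of 2 tested was lower (Elovl3, log2 fold change −1.37, adjusted p = 0.010). The other, Cidea, lay on the opposite side of 0, with a log2 fold change of 0.46, and was not called. The part of cell composition in the OXPHOS values was not tested, and in bulk RNA fewer hepatocytes and less RNA per hepatocyte cannot be told apart.

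Complex II gave the member with the lowest p. Sdhb, the iron-sulfur subunit of succinate dehydrogenase, had 180, 179 and 172 CPM in WT 1 to 3 and 128, 126 and 160 CPM in Themis-KO 1 to 3. The groups did not overlap (log2 fold change −0.36, SE 0.11, adjusted p = 0.076). Sdhd, which anchors the enzyme in the membrane, had 151, 164 and 146 CPM against 122, 123 and 139 CPM (−0.27, SE 0.09, adjusted p = 0.096). These livers did not overlap either, and Themis-KO 3 was again the nearest to WT. Sdha, the flavoprotein that oxidizes succinate, had 762, 799 and 698 CPM against 610, 592 and 687 CPM, and its log2 fold change was −0.26 (adjusted p = 0.132). The other membrane anchor, Sdhc, stood apart from its 3 partners, with 124, 138 and 119 CPM against 120, 119 and 134 CPM and overlapping groups (−0.03, SE 0.09). The median of the 4 genes was −0.26, the lowest among the nuclear genes of the 5 complexes under TMM, and whether it differs from the others was not tested.

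Complex I takes electrons from NADH through a flavin and a chain of iron-sulfur clusters held by core subunits, around which accessory subunits are arranged. Of its 36 nuclear genes, 35 had a log2 fold change below 0, 7 had an unadjusted p under 0.05 (13.9% of all genes were lower at this p) and 8 had no overlap between groups (16.9% of all genes were lower without overlap). The median was −0.17. Ndufs1, the largest core subunit, had 163, 184 and 159 CPM against 128.5, 132 and 150 CPM (−0.30, SE 0.10, adjusted p = 0.087). Ndufs3, a core subunit of the peripheral arm, had 82.8, 85.3 and 72.8 CPM against 57.6, 60.9 and 74.1 CPM (−0.32, SE 0.12, adjusted p = 0.112). The groups of Ndufs1 were separate, and those of Ndufs3 overlapped because Themis-KO 3 exceeded WT 3. The accessory membrane-arm subunit Ndufb5 had 60.4, 64.1 and 58.1 CPM against 51.4, 49.5 and 54.97 CPM, without overlap (−0.23, SE 0.08, adjusted p = 0.110). Ndufa1, an accessory subunit of the membrane arm, was the only nuclear gene of complex I above 0, with 35.4, 34.6 and 26.9 CPM against 28.3, 31.7 and 39.0 CPM and overlapping groups (0.03, SE 0.15).

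Complex III carries electrons from ubiquinol to cytochrome c. All 8 of its nuclear genes had a log2 fold change below 0 under TMM, with a median of −0.17 and a range from −0.23 to −0.08. Of these, 3 had an unadjusted p under 0.05 and no overlap, namely Uqcrc1 and Uqcrc2, the 2 core proteins, and Uqcrfs1, the Rieske iron-sulfur protein. Among all genes, 13.9% were lower at this p and 16.9% were lower without overlap. Uqcrc2 had 251, 262 and 248 CPM against 207, 211 and 230 CPM (−0.23, SE 0.08, adjusted p = 0.106). The small subunit Uqcrq was nearest to 0, with 188, 215 and 172 CPM against 171, 174 and 199 CPM, and its groups overlapped (−0.08, SE 0.11). The core proteins and the Rieske protein were thus separate between groups, whereas Uqcr10, Uqcr11, Uqcrb, Uqcrh and Uqcrq were not.

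Complex IV, cytochrome c oxidase, reduces oxygen and has several subunits with tissue-specific forms. Of 13 nuclear genes tested, 11 were below 0 and the median was −0.09, the nearest to 0 of the 5 complexes. Cox5a was the only one with an unadjusted p under 0.05 and the only one without overlap, with a log2 fold change of −0.20. Among all genes, 13.9% were lower at this p and 16.9% were lower without overlap. The liver form Cox6a1 had 232, 266 and 237 CPM against 241, 231 and 249 CPM (−0.03, SE 0.09), and Cox6a2, the heart and muscle form, had 7 counts in all livers together. Cox6b1 had 65.2, 74.7 and 58.7 CPM against 56.9, 59.7 and 70.0 CPM (−0.09, SE 0.12). The groups overlapped for both. Cox8a, the form used in liver, had 240, 288 and 245 CPM against 247, 221 and 259 CPM (−0.09, SE 0.11), and Cox8b, its muscle and brown fat counterpart, had 1 count.

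Among the forms of subunit 7A, Cox7a2, the form of liver, had 71.8, 76.8 and 70.1 CPM against 67.2, 63.9 and 72.6 CPM (−0.10, SE 0.08). Cox7a2l, which helps join complexes III and IV into supercomplexes, had 84.1, 91.9 and 79.6 CPM against 76.8, 74.5 and 87.5 CPM (−0.10, SE 0.10). The muscle form Cox7a1 was scarce, with 0.28, 0.58 and 0.39 CPM against 0.51, 0.69 and 0.76 CPM, and its log2 fold change of 0.65 (SE 0.37, adjusted p = 0.273) was the largest among nuclear members and rested on overlapping groups. Ndufa4 had 185, 204 and 178 CPM against 170, 172 and 194 CPM (−0.08, SE 0.09). Its hypoxia-induced relative Ndufa4l2 had 0.87, 1.20 and 1.07 CPM against 1.19, 0.86 and 1.56 CPM, with overlapping groups (0.20, SE 0.30). The liver forms thus dominated in both groups, with WT means per kilobase of transcript of 111 CPM for Cox7a2 against 1.06 CPM for Cox7a1, and of 310 CPM for Ndufa4 against 1.12 CPM for Ndufa4l2.

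Complex V has a catalytic F1 head and a membrane part whose ring of c subunits turns with the proton flow. Of 17 nuclear genes, 16 were below 0, with a median of −0.16. An unadjusted p under 0.05 was seen for 4 (13.9% of all genes were lower at this p). The groups did not overlap for 7 (16.9% of all genes were lower without overlap). The 5 genes of the head (Atp5a1, Atp5b, Atp5c1, Atp5d and Atp5e) had a median of −0.19, and the 12 of the stalks and membrane part −0.16. Atp5c1, the central rotor of the head, had 214, 235 and 212 CPM against 174, 175 and 200 CPM (−0.27, SE 0.09, adjusted p = 0.104), without overlap. Atp5b, the catalytic beta subunit, was the most abundant nuclear member per kilobase, with a WT mean of 762 CPM and a Themis-KO mean of 693 CPM.

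The c subunit of the ring comes from 3 genes whose products share 1 mature protein sequence. Atp5g1 had 73.9, 67.5 and 64.0 CPM against 52.3, 57.5 and 66.3 CPM (−0.22, SE 0.11, adjusted p = 0.205). Atp5g3 had 213, 252 and 199 CPM against 197, 180 and 218 CPM (−0.16, SE 0.12). Both overlapped, through Themis-KO 3. Atp5g2 showed no such difference, with 45.5, 48.1 and 47.2 CPM against 46.8, 44.4 and 51.2 CPM (0.02, SE 0.08). In WT, Atp5g3 had the highest level per kilobase of the 3, at 310 CPM, with 115 CPM for Atp5g1 and 106 CPM for Atp5g2.

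**Figure D3:**
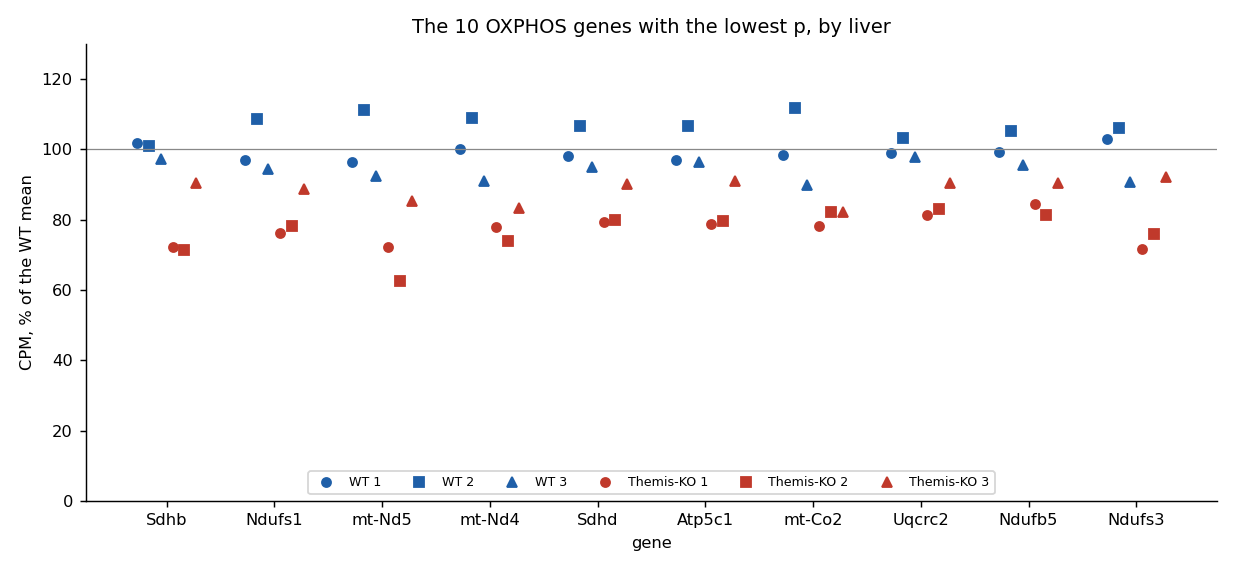
CPM of the 10 OXPHOS genes with the lowest p in each liver, as a percentage of the mean of the 3 livers labelled WT (blue, WT; red, Themis-KO; circle, square and triangle, replicates 1, 2 and 3; line, 100%). The triangle of Themis-KO 3 lies above the other red points for 9 of the 10 genes, and for Ndufs3 it lies above WT 3.

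The mtDNA genes are transcribed as long precursors from both strands and cut into single mRNAs. With mt-Nd3 left aside, all 12 were below 0 under TMM, with a median log2 fold change of −0.30, or −18.9%, against −0.16, or −10.6%, for the nuclear members. Of the 12, 4 had an unadjusted p under 0.05 (13.9% of all genes were lower at this p). No overlap between groups was seen for 7 (16.9% of all genes were lower without overlap). The 13 genes together took 81938, 91687 and 79603 CPM in WT and 70984, 64512 and 76840 CPM in Themis-KO. Every liver labelled Themis-KO was below every WT liver in this sum under TMM, and Themis-KO 3 was below WT 3 by less than the SD of either group, which was 6410 CPM in WT and 6167 CPM in Themis-KO. As shares of all counts the groups overlapped, with 7.65%, 8.59% and 7.86% in WT and 7.46%, 6.91% and 7.87% in Themis-KO, and with total counts the median of the 12 genes was −0.16. The ratio of mtDNA to nuclear OXPHOS CPM was 7.38, 7.73 and 7.58 in WT and 7.51, 6.88 and 7.15 in Themis-KO, with overlapping ranges. In Themis-KO 1 and 2 both the mtDNA and the nuclear sum lay below every WT liver, whereas the nuclear sum of Themis-KO 3, at 10741 CPM, was above the 10505 CPM of WT 3.

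Among the mtDNA genes of complex I, mt-Nd5 and mt-Nd4, which encode proton-pumping subunits of the membrane arm, had the lowest p. Levels of mt-Nd5 were 8030, 9279 and 7712 CPM against 6027, 5213 and 7114 CPM (−0.45, SE 0.15, adjusted p = 0.087). Those of mt-Nd4 were 9243, 10070.2 and 8411 CPM against 7193, 6831 and 7694 CPM (−0.35, SE 0.12, adjusted p = 0.089). Both separated the groups. The proton-pumping subunit mt-Nd2 also did, with 10096, 10874 and 9898 CPM against 9558, 8312 and 9683 CPM, but by less (−0.16, SE 0.11). In mt-Nd1, whose protein lies near the quinone site, the groups overlapped, with 6799, 8679 and 7681 CPM against 6873, 6632 and 8711 CPM (−0.06, SE 0.15). The small subunit mt-Nd4l had 823, 880 and 653 CPM against 566, 542 and 776 CPM (−0.32, SE 0.17). The only gene here on the opposite strand, mt-Nd6, had 1307, 1544 and 1206 CPM against 1051, 922 and 1293 CPM (−0.31, SE 0.15). Both of these overlapped, since Themis-KO 3 exceeded WT 3.

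In the other complexes, mt-Cytb, the heme-bearing core of complex III, had 15315, 16499 and 14185 CPM against 12665, 10942 and 12902 CPM (−0.33, SE 0.12, adjusted p = 0.116). The catalytic subunit mt-Co1 of complex IV had 24380, 26625 and 23819 CPM against 21915, 19907 and 22463 CPM (−0.22, SE 0.12). The copper-binding mt-Co2 had 1692, 1922 and 1543 CPM against 1343, 1415 and 1414 CPM (−0.31, SE 0.11, adjusted p = 0.106), and mt-Co3, the third core subunit, had 2733, 3389 and 2695 CPM against 2260, 2229 and 2673 CPM (−0.30, SE 0.13). All 4 separated the groups. The proton channel subunit mt-Atp6 of ATP synthase had 956, 1281 and 959 CPM against 804, 802 and 1079 CPM (−0.25, SE 0.17). Its small partner mt-Atp8 had 552, 628 and 442 CPM against 409, 413 and 618 CPM (−0.17, SE 0.19), and both overlapped.

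The gene mt-Nd3 did not follow the rest. It had 13.99, 15.5 and 399.6 CPM in WT 1 to 3 and 321, 352 and 422 CPM in Themis-KO 1 to 3, so WT 1 and WT 2 stood apart from the other 4 livers. Its copy Gm28438 showed the opposite, with 403, 474 and 8.997 CPM against 7.44, 11.9 and 10.4 CPM. The copy took 96.6% and 96.8% of the counts of this pair in WT 1 and WT 2, and between 2.2% and 3.26% in the other 4 livers. As listed, the log2 fold change of mt-Nd3 was 1.35 (SE 1.13, adjusted p = 0.442), and it was 4.62 (adjusted p = 4.06e-04) without WT 3. With the counts of both summed, mt-Nd3 stood at 417, 489 and 409 CPM against 328, 364 and 433 CPM, and the difference became −0.23 (SE 0.13, adjusted p = 0.264). The split of reads between the mtDNA gene and its copy thus set the sign of mt-Nd3 in this comparison. This split follows the genotype label only in part. The livers with a high share on the copy were all labelled WT, but WT 3 lay with the Themis-KO livers. What makes WT 1 and WT 2 differ at this gene was not tested. Whether the mice themselves differ at this base of mtDNA, so that the WT group would hold 2 mtDNA types, was not tested either.

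For the other 6 copies no liver stood apart in this way. Gm10925 took 85.1% to 87.8% of the counts of its pair with mt-Atp6, Gm28661 took 68.9% to 75.0% with mt-Co2, Gm28437 took 58.7% to 63.3% with mt-Co3, Gm10222 took 9.56% to 17.0% with mt-Nd4l and Gm28439 took 10.0% to 11.8% with mt-Nd4. Gm29216, which copies part of mt-Co1 and differs from it by A1066T in the same notation, took at most 0.36%. When each mtDNA gene was summed with its copies, edgeR called 0 of 13, where it called 4.18% of all genes lower. Of the 13, 3 had an unadjusted p under 0.05 and 6 had no overlap, and the median was −0.23. Before summing, 13.9% of all genes were lower at this p and 16.9% were lower without overlap. The sum moved mt-Co2 from −0.31 to −0.20, and its groups then overlapped. The order of levels changed more than the differences: per kilobase, the WT mean of mt-Atp6 went from 1564 to 11245 CPM and that of mt-Co2 from 2513 to 8453 CPM. After summing, mt-Co1 had the highest WT level per kilobase at 16184 CPM, followed by mt-Cytb with 13403 CPM, and mt-Nd3 had the lowest at 1259 CPM.

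**Figure D4:**
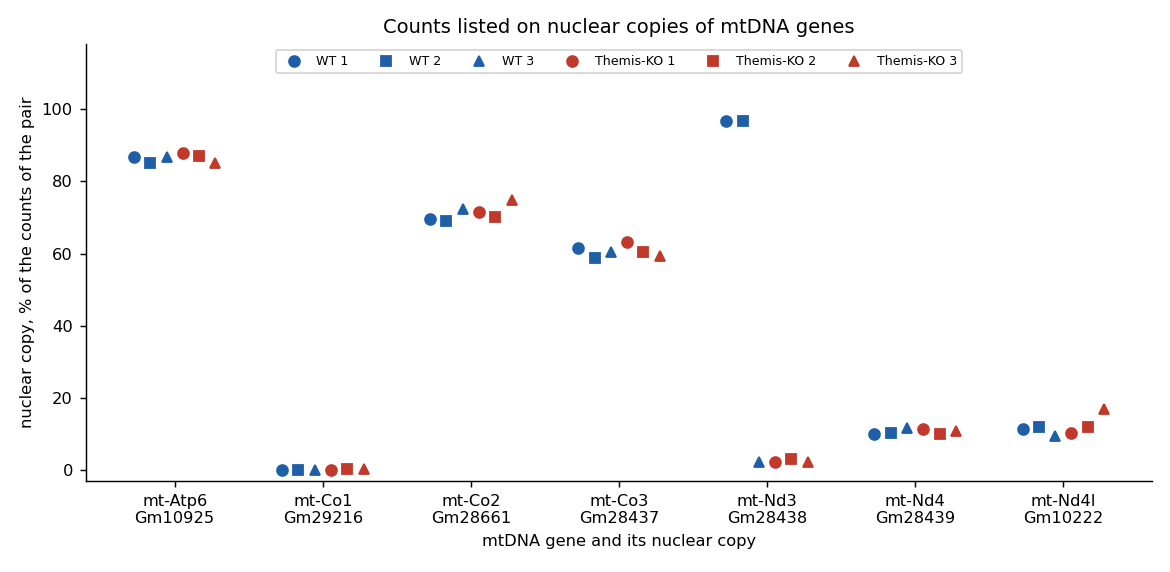
Share of the counts of each mtDNA gene and its chromosome 1 copy that the table lists on the copy, in percent, by liver (blue, livers labelled WT; red, livers labelled Themis-KO; circle, square and triangle, replicates 1, 2 and 3). Only for mt-Nd3 with Gm28438 do livers stand far apart: WT 1 and WT 2 are at 96.6% and 96.8% and the others at 3.26% or less.

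Genes that assemble, regulate or serve the respiratory chain were read from fixed lists. Of 46 assembly factors, which build the complexes without being part of them, 4 were lower and 1 was higher. At the same adjusted p of 0.05 in edgeR's test, 4.14% of all genes were lower and 4.97% higher. In this list 39 were below 0 and the median was −0.21. Ndufaf1, needed for the membrane arm of complex I, had 28.3, 27.3 and 25.97 CPM against 17.8, 17.5 and 21.2 CPM (−0.53, SE 0.10, adjusted p = 0.030). Ndufaf4, another complex I factor, was lower with −0.40 (adjusted p = 0.039), Timmdc1, of the same pathway, with −0.41 (adjusted p = 0.041), and Taco1, the activator of mt-Co1 translation, with −0.46 (adjusted p = 0.046). Cox19, a copper-handling factor of complex IV, was higher, with 31.7, 34.3 and 32.8 CPM against 48.9, 44.3 and 39.8 CPM (0.43, SE 0.10, adjusted p = 0.040). The genes called here thus separated all 6 livers, and in each of them Themis-KO 3 was the Themis-KO liver nearest to WT.

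Of 22 regulators of mitochondrial genes and of mtDNA expression, 2 were lower and 0 higher, where 4.14% of all genes were lower and 4.97% higher. Their median was −0.20. Lrpprc, which stabilizes mtDNA-encoded mRNAs, had 143, 125 and 132 CPM against 90.8, 92.2 and 107 CPM (−0.46, SE 0.10, adjusted p = 0.035). Tfb1m, which methylates the small mitochondrial rRNA, had 9.31, 7.73 and 6.95 CPM against 3.65, 4.65 and 5.43 CPM (−0.80, SE 0.19, adjusted p = 0.043). Among 13 genes of the TCA cycle, which supplies NADH and succinate, Sucla2 was lower (−0.34, adjusted p = 0.044), 12 were below 0 and the median was −0.18. Among 78 genes of the mitochondrial ribosome, which translates the mtDNA mRNAs, only Mrps35 was lower (−0.48, adjusted p = 0.038), a share below the 4.14% of all genes. Of the 78, 71 were below 0, and the median was −0.18.

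In edgeR's test, 0 of 12 coenzyme Q genes passed, with 4 at an unadjusted p under 0.05 and 2 called lower by DESeq2, and their median was −0.12. Among all genes, 13.9% were lower at this unadjusted p, and DESeq2 called 7.48% lower. Coq8a, a kinase-like protein of coenzyme Q synthesis, came nearest, with 146, 165 and 100.6 CPM against 70.2, 59.0 and 95.6 CPM (−0.87, SE 0.22, adjusted p = 0.051). Of 5 subunits or partners that the name pattern misses, 0 passed in edgeR or DESeq2, with 2 at an unadjusted p under 0.05. Cyc1, the cytochrome c1 of complex III, had a log2 fold change of −0.23 (adjusted p = 0.122), and Atpif1, the inhibitor of ATP synthase, had 12.1, 13.005 and 11.01 CPM against 14.2, 14.9 and 17.7 CPM (0.37, adjusted p = 0.095). The 82 cytosolic ribosomal genes had 70 above 0, a median of 0.08 and 0 called by edgeR or DESeq2. At an unadjusted p under 0.05, 5 were higher, where 16.8% of all genes were. Every Themis-KO liver was above every WT liver for 28 of the 82, against 17.7% of all genes. Of the 9 genes called in the mitochondrial lists, 9 were called without Themis-KO 3 and 1 (Ndufaf1) without WT 3. Without any other single liver 0 were called, and their adjusted p lay between 0.092 and 0.161. All 9 kept their sign. Of all genes, 13.8% were called lower without Themis-KO 3, 2.49% without WT 3 and 0.0814% to 0.384% without another liver. The negative sign of the medians was shared by the mitochondrial lists and was not seen in the median of the cytosolic ribosome under TMM. It was not particular to mitochondrial genes, as the 6 hepatocyte markers had a median of −0.28, with 5 below 0.

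**Figure D5:**
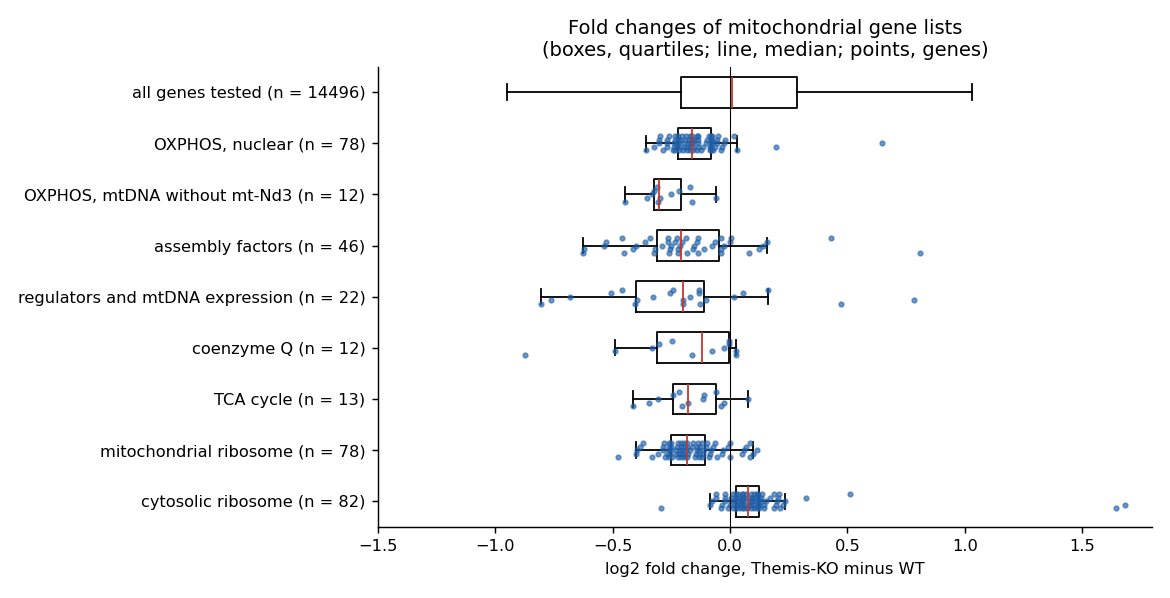
Log2 fold change, Themis-KO minus WT, by gene list (box, quartiles; line in the box, median; whiskers, farthest genes within 1.5 times the interquartile range; points, single genes, drawn for all lists but the first). The medians of the 7 lists of mitochondrial function lie between −0.30 and −0.12, that of all genes tested at 0.01 and that of the cytosolic ribosome at 0.08.

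Promoters were searched for the short core words of 4 factors known to act on OXPHOS genes, on both strands from 250 bases before to 50 after the start of the RefSeq gene. Of the nuclear members, 65 had a promoter there. The NRF1 word GCGCATGCG, which overlaps its own reverse complement when followed by C, was held by 8 of them, or 12.3%, against 3.35% of 13221 genes with a promoter. The YY1 word AAGATGGCG was held by 7, or 10.8%, against 2.79%, the ESRRA word TCAAGGTCA by 2, or 3.1%, against 0.36%, and the GABPA word CCGGAAGT by 5, or 7.7%, against 7.26%. For 4 complex V genes, the 100 bases before the start are shown, since each of the 4 words is seen there in a gene of the same complex, and 2 of the genes encode the same c subunit. Capitals mark the word or its reverse complement. They lie in GRCm38.p6 on the reverse strand, Atp5g2 (NRF1) at chr15:102671048-102671147, Atp5h (GABPA) at chr11:115419920-115420019, Atp5j (YY1) at chr16:84834977-84835076 and Atp5g3 (ESRRA) at chr2:73911327-73911426.
Atp5g2: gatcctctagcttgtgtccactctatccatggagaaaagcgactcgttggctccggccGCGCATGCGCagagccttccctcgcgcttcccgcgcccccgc
Atp5h: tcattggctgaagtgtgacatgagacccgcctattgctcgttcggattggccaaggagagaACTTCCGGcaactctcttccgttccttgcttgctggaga
Atp5j: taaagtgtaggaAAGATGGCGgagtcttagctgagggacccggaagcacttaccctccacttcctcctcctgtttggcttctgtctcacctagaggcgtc
Atp5g3: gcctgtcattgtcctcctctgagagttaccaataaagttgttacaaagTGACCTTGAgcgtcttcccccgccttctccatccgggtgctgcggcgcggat

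The log2 fold changes of these 4 were 0.02 for Atp5g2, −0.24 for Atp5h, −0.22 for Atp5j and −0.16 for Atp5g3. Over all tested members with a promoter, the 8 with the NRF1 word had a median of −0.08 and the 56 without it −0.17. The 7 with the YY1 word had a median of −0.16, the 5 with the GABPA word −0.17 and the 2 with the ESRRA word −0.21. Members with any of the 4 words and members with none had medians of −0.16 (21 genes) and −0.17 (43 genes). A match to these letters describes the sequence and is not a measured binding site.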

How the data were processed

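Poly(A) liver libraries of 3 WT and 3 Themis-KO mice were sequenced as paired-end reads. Per the submitters' notes and the paper's methods, the authors trimmed reads with cutadapt 2.3, mapped them to GRCm38 with STAR 2.7.8a and estimated gene counts with RSEM 1.3.3. The deposited estimated counts are whole numbers without normalization, and RSEM shares out reads with several possible genes, which affects mtDNA genes with nuclear copies. Groups and replicate numbers were taken from the labels. The test was edgeR 4.0.16 in R 4.3.3 (filterByExpr, TMM, glmQLFit and glmQLFTest, no covariate) on 14496 of 25403 genes, with Benjamini-Hochberg adjustment over all genes tested and a threshold of 0.05. Each SE is the absolute log2 fold change divided by the root of F. No label says that the livers of a group were separate animals, and p-values measure the spread between these samples.

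The members, gene lists and tests were chosen with earlier results of these data known. Values in every liver are given for the 13 mtDNA genes, the 10 members with the lowest p (as none passed), the members with the highest and lowest log2 fold change of each complex, and tissue isoforms. Of the lists, up to 4 called genes with the lowest p are named. Sdha, Cox5a, Atp5b, Coq8a, Cyc1, Atpif1, Taco1, Uqcrc1, Uqcrfs1 and, from the printed promoters, Atp5h and Atp5j were named outside these rules, after their values were seen. Levels per kilobase used the shortest principal transcript with the best support in GENCODE vM21. Nuclear copies were found with BLAST+ 2.17.0 (at least 90% identity over 100 bases). Promoters came from RefSeq (GRCm38.p6). Alternatives were other scalings, filters and thresholds, DESeq2 1.42.0, a replicate block, the split of livers by Gm28438 share as a covariate, summed copies (chosen after seeing the data) and each liver left out. Scripts were tested on simulated counts. Figures were drawn with matplotlib 3.10.9. Protein sequences were not used here, and 1 item is not reported here.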

Additional observations from a re-analysis of the deposited data

How the results depend on the processing

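No member was called in either direction in edgeR's fits with RLE or upper quartile scaling, with total counts, with mtDNA genes and Gm28438 left out of the scaling, with 10 counts in every liver, with summed copies or with the replicate block. Without a filter 2 members were called lower (mt-Nd5 and mt-Nd4, where 3.81% of all genes were), with DESeq2 5 (mt-Nd4, mt-Nd5, mt-Cytb, Sdhb and mt-Co2, where 7.48% of all genes were), and at an adjusted p of 0.1 5 (Sdhb, Ndufs1, mt-Nd5, mt-Nd4 and Sdhd, with 9.08% of all genes). Leaving out 1 liver gave 0 to 32 lower and 0 to 1 higher members. Of all genes, these fits called 0.0814% to 13.8% lower and 0.0543% to 15% higher. The 32 came without Themis-KO 3 and the 1, mt-Nd3, without WT 3. The medians then ranged from −0.25 to −0.12 for nuclear and from −0.41 to −0.20 for mtDNA members. With total counts the nuclear median was −0.023.

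With the split of the livers by Gm28438 share as a covariate, only WT 3 is compared with the Themis-KO livers, so the fit rests on 1 WT liver. It gave medians of −0.07 for nuclear and −0.15 for mtDNA members, and mt-Nd3 was −0.13. The replicate block gave medians of −0.17 and −0.30. Same-numbered livers correlated at 0.01, −0.31 and −0.18 in their deviations from the group means. Deviations within a group of 3 livers sum to 0, so these values cannot decide whether the numbers pair the livers. The study's text speaks of 3 pairs of livers but does not tie pairs to these numbers. The main fit did not treat the livers as paired. The block called 0 members, as did the fit without it, but over all genes it lowered the shares called from 4.97% to 0.117% higher and from 4.14% to 0.31% lower. None of the 9 genes called in the mitochondrial lists passed under it (adjusted p 0.101 to 0.152), and 2 of 12 called marker genes did. With total counts 2 of the 9 passed, with upper quartile scaling 6, and with the covariate 0.

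Single genes near 0 changed sign, with no adjusted p under 0.05. With total counts, Sdhc was at 0.11, Uqcrq at 0.059, mt-Nd1 at 0.075, Cox6a1 at 0.11, Cox6b1 at 0.049, Cox7a2 at 0.035, Cox7a2l at 0.041, Cox8a at 0.051 and Ndufa4 at 0.058. With the covariate, Sdhc was at 0.062, Uqcrq at 0.072, mt-Atp8 at 0.12, Cox6a1 at 0.023, Cox6b1 at 0.083, Cox7a2l at 0.00063 and Ndufa4 at 0.0058. Summed with Gm28438 alone or with all copies, mt-Nd3 was at −0.23. Leaving out 1 liver gave −0.11 to 0.028 for Sdhc, −0.058 to 0.055 for Atp5g2, −0.17 to 0.0062 for Uqcrq, −0.21 to 0.030 for mt-Nd1, −0.068 to 0.035 for Cox6a1, −0.20 to 0.0024 for Cox6b1 and −0.043 to 0.38 for Ndufa4l2. The cause of these changes was not tested. The expression filter kept 2 members from being tested, Cox6b2 with 10 counts in all and Cox7c-ps1 with 20.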

Other observations

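The mitochondrial rRNAs mt-Rnr1 and mt-Rnr2, which are transcribed from the same mtDNA as the 13 protein genes, summed to 3131, 2701 and 2858 CPM in the livers labelled WT and to 3073, 2895 and 2905 CPM in those labelled Themis-KO. The groups overlapped, with a ratio of means of 1.02, whereas the 13 protein genes had a ratio of 0.839. Libraries selected for poly(A) RNA hold only part of the rRNA.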
